A study of Mus musculus with 12 samples.

Results

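Potassium channel genes outside the Kv1 and Kv4 families were examined in the CA2 and CA1 areas of the mouse hippocampus, in the layer of pyramidal cell bodies and in the layer of their apical dendrites. The genes were those whose symbol in the array annotation starts with Kcn, without Kcna, Kcnd and Kcnip symbols and without antisense or overlapping transcripts such as Kcnq1ot1. This gave 72 genes of the 30142 with a symbol of their own, and each of the 72 was read by a single array feature. They comprise 1 Kv2 gene (Kcnb2), 10 silent Kv subunits, 3 Kv3 genes, 3 Kv7 genes, 8 EAG, ERG and ELK genes, 8 genes of the BK and Slack channels with their accessory subunits, 4 SK and IK genes, 5 KCNE accessory subunits, 15 inward rectifiers, 14 K2P leak channels and Kcnrg.

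The study captured 4 tissue pieces with a laser, and 3 arrays were hybridised for each: the CA2 dendritic layer, the CA2 cell body layer, the CA1 dendritic layer and the CA1 cell body layer. All 4 groups came from the same 3 male mice of the strain labelled Amigo2-GFP C57BL/6J, aged 6 to 8 weeks and from separate litters, so the Amigo2-EGFP reporter, which marks CA2, is carried by every sample and animals without it were not analysed here. Each piece was pooled from about 20 caps of 5 sections, and the sections were 8 µm thick. The RNA went through the Nugen WT-Ovation Pico amplification before hybridisation, and the labels call the array work a pilot.

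Potassium channels set the resting potential of a neuron, end its action potentials and limit how often it fires. Kv channels open on depolarisation, and their subtypes differ in speed and in place: Kv7 subunits carry the slow M current that muscarinic receptors shut, Kv3 subunits allow fast firing, and Kv2 subunits cluster on the cell body and proximal dendrites. BK and SK channels open with calcium and shape the afterhyperpolarisation, inward rectifiers hold the membrane near rest and include the GIRK channels opened by G proteins, and K2P channels carry leak currents. In CA1 pyramidal cells many of these channels act in dendrites, whereas most mRNA of a neuron lies in its cell body. Values below are log2 array levels deposited by the authors. A layer difference is the dendritic layer minus the cell body layer, a region difference is CA2 minus CA1, and a gene passed the test at a limma adjusted p under 0.05 over all 30142 genes.

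The cell body pieces matched their labels in their markers: 8 of 8 CA2 neuron markers were higher in the CA2 than in the CA1 cell body layer, and 4 of 5 measured CA1 neuron markers were lower. The dendritic pieces were less distinct. Between them, 3 of the 8 CA2 neuron markers were higher and 0 lower in CA2, and 3 of the 5 CA1 neuron markers were lower and 0 higher. In the dendritic layer of CA2 and of CA1, 12 of 12 astrocyte, 11 of 11 measured microglia and 10 of 10 endothelial markers were higher than in the cell body layer. In bulk tissue, fewer cells of a type and less RNA per cell cannot be told apart. All CA2 arrays share a run number and all CA1 arrays share another, so a region difference and a run difference cannot be told apart, while each layer comparison lies within a run. On 3 CA2 arrays (cell body replicate 1, dendritic replicates 2 and 3) the mean of 15 oocyte genes read 7.06 to 7.15, against 5.30 to 5.71 on the other 9 arrays, and each overview below gives the calls that were lost without them. Of the 72 genes, 22 lay above the 95th percentile of 92 control features (a level of 7.04 to 7.32) in all 4 groups, and 33 lay above it in none. Those of the 33 that passed in a comparison were Kcnh8, Kcng3, Kcnk12, Kcnmb1, Kcnj8, Kcnj2, Kcnh4, Kcnn4, Kcnmb3, Kcne1, Kcne2, Kcng1, Kcnv2 and Kcnk10. Their differences rest on readings at the level of the control features. The dendritic means of Kcnv1, Kcnb2, Kcns2 and Kcnj4 in both regions and of Kcnj6, Kcnj9 and Kcnt1 in CA2 did not lie above that percentile. Nor did the cell body means of Kcnj16, Kcnmb2, Kcnn3 and Kcnk6 in both regions and of Kcnc4 in CA2. The sizes of these layer differences therefore rest on readings at the level of the control features. For Kcnj16 and Kcnmb2 the CA1 dendritic means did not lie above it either, so in CA1 both layers read at that level. The CA2 dendritic means of Kcnk6, Kcnk3 and Kcnn1 also did not lie above it, which limits their region differences between dendritic layers. For Kcnk13 neither cell body mean lay above it, which limits its region difference between cell body layers. The replicate SD of the 72 genes had a median of 0.105 in the CA2 dendritic, 0.075 in the CA2 cell body, 0.126 in the CA1 dendritic and 0.067 in the CA1 cell body layer. Nothing in the labels says whether an array number marks a mouse, so the p-values measure the spread between these arrays, and their number limits the precision.

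In CA2, more channel genes were lower than higher in the dendritic layer, and 2 rectifier subunits known from astrocytes were among those that were higher. Of the 72 genes, 9 rose and 23 fell in the dendritic relative to the cell body layer (44.4% in all), where 34% of all genes passed the test, 16.2% higher and 17.8% lower. The largest falls on the log2 scale were those of the silent subunit Kcnv1 (-2.94), the GIRK subunits Kcnj3 (-2.04) and Kcnj6 (-1.59), the M-current subunit Kcnq5 (-1.95) and the inward rectifier Kcnj4 (-1.55). The astrocyte rectifier subunits Kcnj10 and Kcnj16 rose by 2.07 and 1.17, and the BK subunit Kcnmb2 by 1.01. In all, 3 genes rose and 9 fell by at least 2-fold, where 5.85% of all genes changed so far, and the falls also included Kcnh1 (-1.27, SE 0.086, limma adjusted p = 1.35e-06), Kcnk9 (-1.17, SE 0.16, limma adjusted p = 0.000193), Kcnma1 (-1.14, SE 0.067, limma adjusted p = 5.05e-07) and Kcnh8 (-1.08, SE 0.068, limma adjusted p = 8.54e-07). The median layer difference of the 72 genes was -0.09, against -0.027 over all genes, and the median of its absolute size was 0.278, against 0.153 over all genes. The 3 arrays of each layer did not overlap in 14 genes that were higher and 32 that were lower in the dendritic layer, where 21.7% and 25.7% of all genes were so. Without the 3 arrays with oocyte transcripts, 6 genes rose and 17 fell, at 18.9% of all genes, and 21 of the 32 genes still passed. The 11 that did not (limma adjusted p of 0.0606 to 0.708) had values without those arrays of Kcnmb1 (0.45), Kcnmb4 (-0.35), Kcnt2 (-0.45), Kcnk4 (-0.35), Kcnk9 (-0.58), Kcne1l (0.44), Kcne1 (-0.33), Kcnj8 (0.098), Kcnc2 (0.41), Kcng1 (-0.28) and Kcns2 (-0.38).

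In CA1, rises and falls were closer in number. Of the 72 genes, 19 rose and 16 fell in the dendritic relative to the cell body layer (48.6% in all), where 46.9% of all genes passed, 28.3% higher and 18.5% lower. The share of the 72 genes that passed was therefore near that of all genes, and the median difference of 0.122 was near the 0.12 over all genes. Changes of at least 2-fold were mostly falls, with 8 lower genes and 1 higher gene where 6.13% of all genes changed so far. The falls were led by the ERG subunit Kcnh7 (-2.12), Kcnb2 (-1.94) and Kcnj3 (-1.64), and Kcnj10 rose by 2.30. The others that fell by that much were Kcnv1 (-1.30, SE 0.26, limma adjusted p = 0.0025), Kcns2 (-1.16, SE 0.10, limma adjusted p = 8.06e-06), Kcnk9 (-1.07, SE 0.16, limma adjusted p = 0.000313), Kcnj6 (-1.05, SE 0.10, limma adjusted p = 1.5e-05) and Kcnj4 (-1.003, SE 0.20, limma adjusted p = 0.00214). The arrays of both layers did not overlap in 28 genes that were higher and 16 that were lower, where 34.7% and 20.4% of all genes were so. Leaving out replicate 1 left 9 genes higher in place of 19, and leaving out replicate 2 or CA1 cell body replicate 1 left 12. Of all genes, 33.1%, 32.2% and 36.1% passed in these settings, in that order. Without the arrays with oocyte transcripts, none of which is from CA1, 1 of the 35 calls was lost, that of Kcne2 at 0.24 (limma adjusted p = 0.0537).

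Across both regions 44 genes (61.1%) passed in at least 1 layer comparison, where 55% of all genes did, and 28 in neither. Higher in the dendritic layer in CA2 and in CA1 were 8 genes (Kcnmb1, Kcnmb2, Kcne1l, Kcnj10, Kcnj16, Kcnj8, Kcnc4 and Kcnn3), which is 11.1% of the 72 where 12.4% of all genes were so. Lower in both were 12 genes, 16.7% of the 72 where 12.2% of all genes were so (Kcnma1, Kcnt2, Kcnk9, Kcnj3, Kcnj4, Kcnj6, Kcnj9, Kcnb2, Kcnq3, Kcnq5, Kcns2 and Kcnv1). Of 7 measured pyramidal neuron markers, 6 fell in the CA2 and 4 in the CA1 dendritic layer and 1 rose in each, with a list mean of 8.82 to 8.94 in the CA2 dendritic, 9.91 to 9.97 in the CA2 cell body, 9.21 to 9.37 in the CA1 dendritic and 9.69 to 9.83 in the CA1 cell body layer. Their part in the channel values was not tested. In 3 genes (4.17%, against 1.17% of all genes) the called directions were opposite: Kcnc2 was higher in the CA2 dendritic layer and lower in that of CA1, whereas Kcnh8 and Kcnmb4 were lower in the CA2 and higher in the CA1 dendritic layer. The CA2 calls of Kcnc2 and Kcnmb4 were lost without the arrays with oocyte transcripts, where a single CA2 dendritic array was left. Their values were then 0.41 and -0.35, against 0.29 and -0.24 with all arrays. The call of Kcnmb4 was also lost without any of 4 single arrays, and every group mean of Kcnh8 lay below the control percentile.

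**Figure D1:**
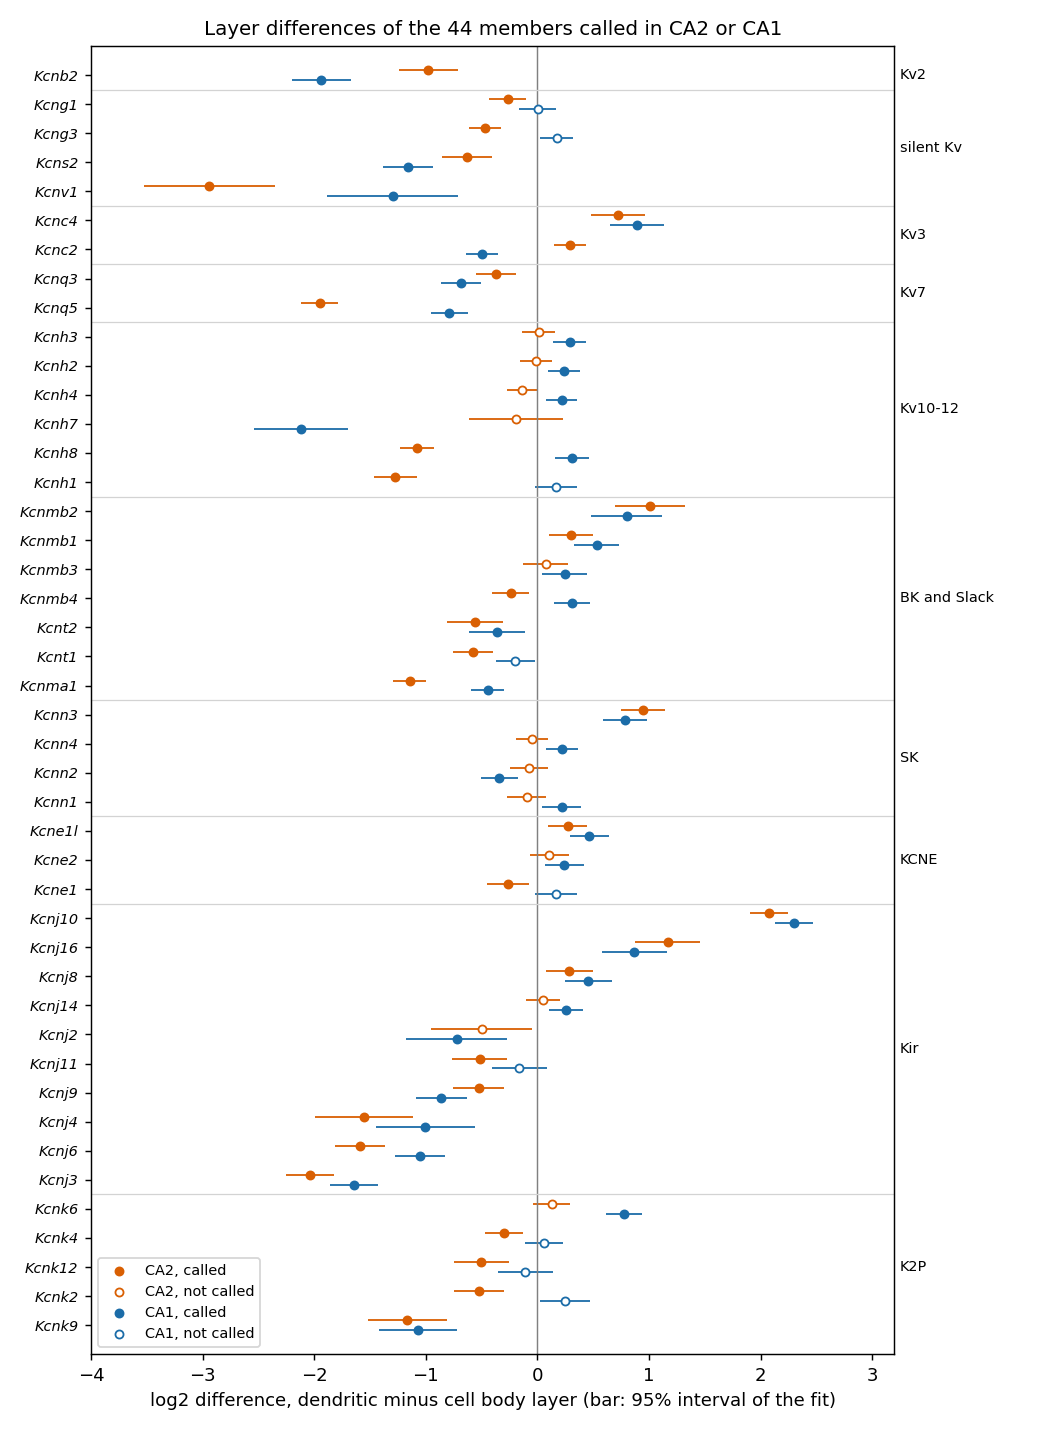
Layer difference (dendritic minus cell body layer, log2) of the 44 genes that passed in CA2 or CA1, with CA2 and CA1 as separate symbols, bars for the 95% confidence interval and filled symbols for differences that passed the limma test. Kcnj10 stands at the high end in both regions (2.07 in CA2, 2.30 in CA1), and Kcnv1 in CA2 (-2.94) and Kcnh7 in CA1 (-2.12) at the low end.

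Between the cell body layers, the channel genes differed in both directions. Of the 72 genes, 13 rose and 9 fell in CA2 relative to CA1 (30.6% in all), where 21.1% of all genes passed, 10.6% higher and 10.5% lower. The ERG subunit Kcnh7 was the furthest apart, at -2.65. Of the M-current subunits, Kcnq5 rose (1.39) and Kcnq3 fell (-1.10). The EAG and ELK subunits Kcnh1 and Kcnh8 rose by 1.27 and 1.17. Next in size were rises of Kcnv1 (0.95), Kcnmb4 (0.84), Kcnk2 (0.76) and Kcnj10 (0.75) and falls of Kcnb2 (-0.76), Kcnj9 (-0.74) and Kcnk9 (-0.74). The arrays of both regions did not overlap in 21 genes that were higher and 14 that were lower in CA2, where 23.9% and 19.8% of all genes were so. The share of rises among the calls was 59.1%, and it was 70.0% after quantile normalization and 72.4% after centring each array on its median. Without the arrays with oocyte transcripts, 9 genes rose and 10 fell, at 15.7% of all genes, and 4 calls were lost (limma adjusted p of 0.0732 to 0.223), with values of Kcnma1 (0.26), Kcnk13 (0.26), Kcne1l (0.23) and Kcnv2 (0.22). Oligodendrocyte markers also differed: 8 of 9 measured ones were higher in CA2 between cell body layers and 6 of 9 between dendritic layers, with a list mean of 9.10 to 9.28 in the CA2 dendritic, 7.78 to 7.89 in the CA2 cell body, 8.49 to 8.81 in the CA1 dendritic and 7.14 to 7.31 in the CA1 cell body layer. Their part in the region differences was not tested. Leaving out replicate 1, or cell body replicate 1 of CA1 or of CA2, left 8 genes higher in place of 13. Of all genes, 13.8%, 15.1% and 16.2% passed in these settings, in that order.

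Between the dendritic layers, more of the genes that passed were lower than higher in CA2. Of the 72 genes, 7 rose and 18 fell in CA2 relative to CA1 (34.7% in all), where 30.2% of all genes passed, 11.6% higher and 18.6% lower, and no gene of the 72 reached 2-fold, as 0.647% of all genes did. The arrays of both regions did not overlap in 7 genes that were higher and 29 that were lower in CA2, where 13.8% and 27.2% of all genes were so. The largest falls that passed were those of Kcnk9 (-0.83), Kcnh3 (-0.82), Kcnq3 (-0.79) and Kcnk12 (-0.73), and the largest rises that passed were those of Kcnmb2 (0.62), Kcnj10 (0.52), Kcnj16 (0.47) and Kcnc2 (0.44). The median difference of the 72 genes was -0.128, against -0.11 over all genes, and centring each array on its median moved the value over all genes to -0.002, with 9 genes higher and 8 lower (52.9% of the calls higher, against 28% as deposited). After this centring 22.6% of all genes passed. Without the arrays with oocyte transcripts, which include 2 of the 3 CA2 dendritic arrays, 1 gene rose (Kcnc2) and 5 fell (Kcnma1, Kcnk12, Kcnh7, Kcnh3 and Kcnq3), at 6.36% of all genes. The 19 calls lost (limma adjusted p of 0.0797 to 0.319) had values without those arrays of Kcnmb2 (0.48), Kcnj10 (0.39), Kcnj16 (0.57), Kcnc1 (0.28), Kcnq5 (0.23), Kcnmb4 (0.22), Kcnk9 (-0.33), Kcnj11 (-0.52), Kcnj3 (-0.48), Kcnj9 (-0.43), Kcnk6 (-0.43), Kcnj6 (-0.38), Kcnk10 (-0.34), Kcnt1 (-0.33), Kcnk3 (-0.31), Kcne1 (-0.31), Kcnk4 (-0.31), Kcnh8 (-0.29) and Kcnn1 (-0.22). Leaving out replicate 1, replicate 2, CA1 dendritic replicate 2 or CA2 dendritic replicate 1 or 2 left 3 or 4 genes higher, and leaving out replicate 1, 2 or 3 or CA1 dendritic replicate 1 left 8 to 11 lower. In these settings 12.2% to 22% of all genes passed.

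**Figure D2:**
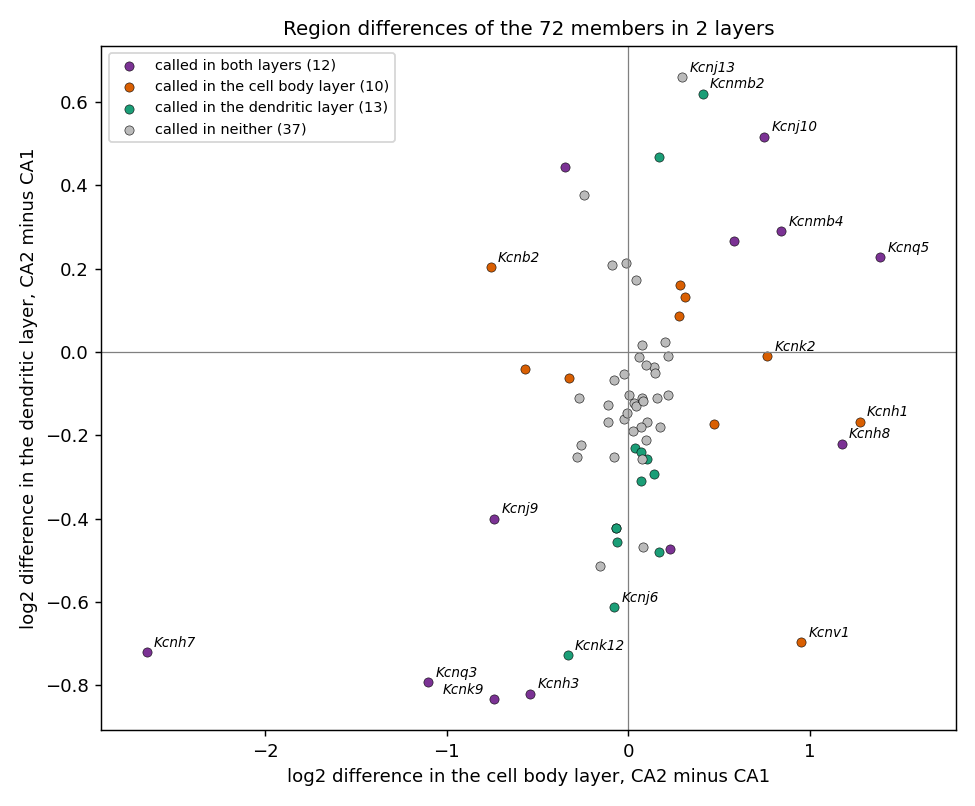
Region difference (CA2 minus CA1, log2) of the 72 genes in the dendritic layer against that in the cell body layer, with a symbol for each gene by where it passed the limma test: in both layers (12 genes), in the cell body layer alone (10), in the dendritic layer alone (13) or in neither (37). Kcnh7 lies far to the low side of the cell body axis (-2.65), and Kcnq5, Kcnh1 and Kcnh8 lie to its high side (1.39, 1.27 and 1.17) with dendritic values of 0.23, -0.17 and -0.22.

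The layer differences of the regions were then set against each other. The layer difference of CA2 minus that of CA1 passed the test in 16 of the 72 genes (22.2%), 4 higher and 12 lower, where 11.6% of all genes passed, 4.81% higher and 6.81% lower. The positive values were those of Kcnh7 (1.93), Kcnb2 (0.96), Kcnc2 (0.79) and Kcns2 (0.53), and the most negative those of Kcnv1 (-1.65), Kcnh1 (-1.44), Kcnh8 (-1.39) and Kcnq5 (-1.16). In all, 5 of these values were 2-fold or more, where 1.37% of all genes had such a value. A run shift that is equal in both layers does not enter this comparison. Without the arrays with oocyte transcripts 3 values were positive and 5 negative, at 2.32% of all genes. The dendritic means of Kcnb2, Kcns2 and Kcnv1 did not lie above the control percentile in either region, so for these genes unequal layer differences and unequal cell body levels cannot be told apart. For Kcnh8, Kcng3, Kcne1 and Kcnh4 no group mean lay above that percentile, so their values rest on readings at the level of the control features.

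The 5 genes at least 2-fold apart between the cell body layers carry the largest differences between the regions. The 250 bases before the gene start are shown for 4 of them. The remaining gene, Kcnq3 (-1.10), had no match among the promoters used. The sequences are RefSeq promoters of the build GRCm38.p6, read 5′ to 3′ on the strand of the gene, and where a table holds several promoters the one nearest the gene start was taken. They lie at chr1:21962651-21962900 on the minus strand (Kcnq5), chr1:192190527-192190776 on the plus strand (Kcnh1), chr17:52602459-52602708 on the plus strand (Kcnh8) and chr2:63184288-63184537 on the minus strand (Kcnh7). Capitals mark the CCAAT box (CCAAT or ATTGG) and the GC box (GGGCGG or CCGCCC).
Kcnq5: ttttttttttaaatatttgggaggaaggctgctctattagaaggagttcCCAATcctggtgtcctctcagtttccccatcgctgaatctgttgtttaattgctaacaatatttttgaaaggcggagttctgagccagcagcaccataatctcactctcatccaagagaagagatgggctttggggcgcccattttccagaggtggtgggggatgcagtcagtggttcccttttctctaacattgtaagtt
Kcnh1: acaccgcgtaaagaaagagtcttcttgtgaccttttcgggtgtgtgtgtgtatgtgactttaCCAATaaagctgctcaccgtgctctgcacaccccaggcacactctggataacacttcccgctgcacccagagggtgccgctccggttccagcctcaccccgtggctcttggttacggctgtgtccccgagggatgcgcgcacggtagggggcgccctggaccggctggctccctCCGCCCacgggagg
Kcnh8: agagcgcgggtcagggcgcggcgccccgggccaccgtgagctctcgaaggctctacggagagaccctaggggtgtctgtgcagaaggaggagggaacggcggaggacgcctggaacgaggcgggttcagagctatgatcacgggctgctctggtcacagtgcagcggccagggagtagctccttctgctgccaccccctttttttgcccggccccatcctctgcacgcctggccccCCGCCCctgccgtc
Kcnh7: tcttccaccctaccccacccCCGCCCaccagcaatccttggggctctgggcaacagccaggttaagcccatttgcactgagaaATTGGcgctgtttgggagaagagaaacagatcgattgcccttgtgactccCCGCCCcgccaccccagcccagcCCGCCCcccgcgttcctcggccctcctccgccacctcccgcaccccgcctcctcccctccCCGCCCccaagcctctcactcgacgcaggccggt
The window of Kcnq5 held 1 CCAAT box and no GC box at 44.4% GC, that of Kcnh1 1 of each at 62.0% GC, and that of Kcnh8 1 GC box at 68.4% GC. The window of Kcnh7, the gene that was lower in CA2, held 4 GC boxes and 1 CCAAT box at 67.6% GC. The cyclic AMP element TGACGTCA and the letters TATAAA were found in none of the 4 windows on either strand. Over 32536 promoters of the same length, 33.0% held a GC box, 33.8% a CCAAT box, 1.56% the cyclic AMP element and 12.3% TATAAA or its reverse, and the median GC content was 52.4%. Of the 72 genes, 54 were matched in this promoter table. These matches describe the letters alone.

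The Kv7 genes separated CA2 from CA1 in opposite directions. Kcnq5, a subunit of the M channel, read 7.70, 7.67 and 7.77 in the CA2 dendritic layer, against 9.69, 9.55 and 9.75 in the CA2 cell body layer. Kcnq5 in CA1 read 7.38, 7.48 and 7.60 in the CA1 dendritic layer, against 8.34, 8.26 and 8.23 in the CA1 cell body layer. The CA2 cell body arrays stood above the other 9 arrays, and the layers did not overlap in either region. The layer difference was -1.95 (SE 0.074, limma adjusted p = 3.54e-08) in CA2 and -0.79 (SE 0.074, limma adjusted p = 1.4e-05) in CA1, and the region difference was 1.39 (SE 0.074, limma adjusted p = 1.12e-06) between cell body layers. Kcnq3, the other M channel subunit measured here, read 9.15, 9.24 and 9.12 in the CA2 dendritic layer, against 9.38, 9.62 and 9.63 in the CA2 cell body layer. Kcnq3 in CA1 read 10.01, 9.90 and 9.98 in the CA1 dendritic layer, against 10.67, 10.59 and 10.68 in the CA1 cell body layer. Here the CA1 cell body arrays were the highest, and the CA2 arrays of each layer lay below the CA1 arrays of the same layer. Its region difference was -1.10 (SE 0.081, limma adjusted p = 9.24e-06) between cell body layers and -0.79 (SE 0.081, limma adjusted p = 0.000184) between dendritic layers. The layer differences of Kcnq3 were -0.37 in CA2 and -0.68 in CA1, and both passed. Kcnq1, a heart and epithelial subunit, passed in no comparison, with a layer difference of -0.03 in CA2 and -0.04 in CA1. Between dendritic layers the region difference of Kcnq5 was 0.23 (SE 0.074, limma adjusted p = 0.0435) and was lost without 10 of the 12 arrays in turn.

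Among the EAG, ERG and ELK genes, Kcnh7, Kcnh1 and Kcnh8 differed most between the cell body layers of the regions, and Kcnh3 between the dendritic layers. Kcnh7, an ERG subunit of the nervous system, read 7.49, 7.78 and 7.27 in the CA2 dendritic layer, against 7.35, 7.87 and 7.90 in the CA2 cell body layer. Kcnh7 in CA1 read 8.40, 7.89 and 8.41 in the CA1 dendritic layer, against 10.40, 10.28 and 10.39 in the CA1 cell body layer. The CA1 cell body arrays stood far above all others, and in CA2 the layers overlapped. The cell body region difference was -2.65 (SE 0.19, limma adjusted p = 7.57e-06), a 6.28-fold lower level in CA2, and the interaction was 1.93 (SE 0.27, limma adjusted p = 0.00197). Between dendritic layers the difference of -0.72 (SE 0.19, limma adjusted p = 0.019) was lost without CA1 dendritic replicate 1 or 3 or CA2 dendritic replicate 3. Kcnh1, the EAG subunit linked in people to syndromes with epilepsy, read 7.26, 7.53 and 7.35 in the CA2 dendritic layer, against 8.55, 8.73 and 8.68 in the CA2 cell body layer. Kcnh1 in CA1 read 7.42, 7.50 and 7.72 in the CA1 dendritic layer, against 7.41, 7.36 and 7.37 in the CA1 cell body layer. The CA2 cell body arrays were the highest, with no overlap with any other group. Its layer difference was -1.27 (SE 0.086, limma adjusted p = 1.35e-06) in CA2 and 0.17 (SE 0.086, limma adjusted p = 0.134) in CA1, and its cell body region difference was 1.27 (SE 0.086, limma adjusted p = 5.19e-06).

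Kcnh8, an ELK subunit, read 4.82, 4.88 and 4.94 in the CA2 dendritic layer, against 5.93, 5.93 and 6.02 in the CA2 cell body layer. Kcnh8 in CA1 read 5.18, 5.07 and 5.05 in the CA1 dendritic layer, against 4.72, 4.82 and 4.82 in the CA1 cell body layer. Again the CA2 cell body arrays were the highest, although the mean there was no higher than the 95th percentile of the control features. Its cell body region difference was 1.17 (SE 0.068, limma adjusted p = 1.8e-06) and its interaction -1.39 (SE 0.097, limma adjusted p = 3.32e-05). Kcnh3, an ELK subunit of the forebrain, read 7.45, 7.42 and 7.52 in the CA2 dendritic layer, against 7.45, 7.52 and 7.39 in the CA2 cell body layer. Kcnh3 in CA1 read 8.30, 8.34 and 8.21 in the CA1 dendritic layer, against 7.99, 7.99 and 8.00 in the CA1 cell body layer. All CA2 arrays lay below all CA1 arrays, and the layers differed little in CA2. The region difference was -0.82 (SE 0.066, limma adjusted p = 6.62e-05) between dendritic layers and -0.54 (SE 0.066, limma adjusted p = 0.000279) between cell body layers. Of the other 4 genes, Kcnh2 and Kcnh4 rose in the CA1 dendritic layer by 0.24 and 0.22, each lost without CA1 cell body replicate 1 or 2, and Kcnh5 and Kcnh6 passed in no comparison.

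**Figure D3:**
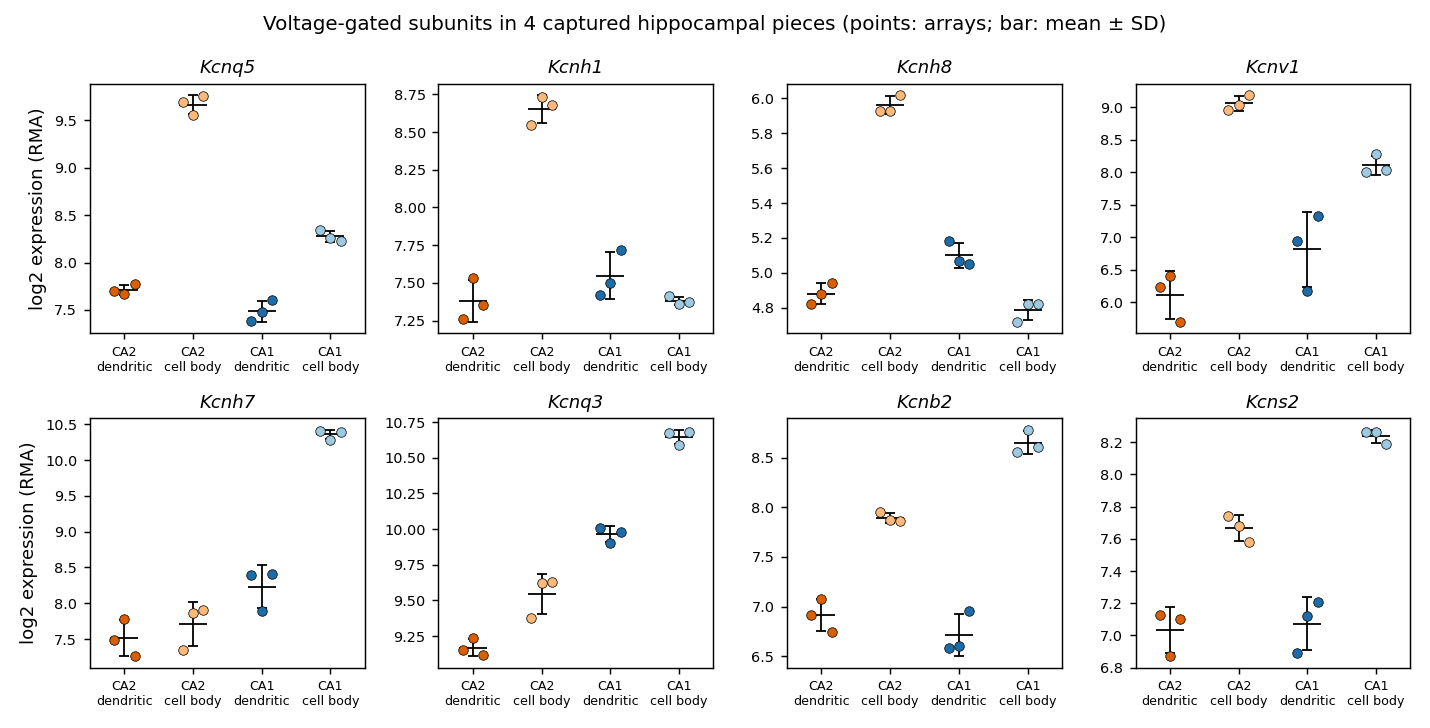
Log2 level of 8 Kv genes (Kcnq5, Kcnh1, Kcnh8, Kcnv1, Kcnh7, Kcnq3, Kcnb2 and Kcns2) on each of the 12 arrays, with points for arrays and a black mark with bars for the mean and SD of each group, in the order CA2 dendritic, CA2 cell body, CA1 dendritic and CA1 cell body layer. Kcnq5, Kcnh1, Kcnh8 and Kcnv1 peak in the CA2 cell body layer, and Kcnh7, Kcnq3, Kcnb2 and Kcns2 in the CA1 cell body layer.

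The Kv2 subunit and several silent subunits, which join Kv2 channels and change their gating, were lower in the dendritic layers. Kcnb2 read 6.92, 7.08 and 6.75 in the CA2 dendritic layer, against 7.95, 7.87 and 7.86 in the CA2 cell body layer. Kcnb2 in CA1 read 6.58, 6.60 and 6.96 in the CA1 dendritic layer, against 8.56, 8.78 and 8.61 in the CA1 cell body layer. The layers did not overlap in either region, and the CA1 cell body arrays were the highest. The layer difference was -0.98 (SE 0.12, limma adjusted p = 8.4e-05) in CA2 and -1.94 (SE 0.12, limma adjusted p = 7.84e-07) in CA1, and these differed by 0.96 (SE 0.17, limma adjusted p = 0.00621). Both dendritic means lay below the control percentile, so the size of each layer difference rests on readings at the control level. The 0.96 between them has the same limit: for Kcnb2, unequal layer differences and unequal cell body levels cannot be told apart. Kcnv1, a silent subunit with strong expression in forebrain neurons, read 6.24, 6.41 and 5.70 in the CA2 dendritic layer, against 8.96, 9.03 and 9.19 in the CA2 cell body layer. Kcnv1 in CA1 read 6.94, 6.18 and 7.32 in the CA1 dendritic layer, against 8.01, 8.28 and 8.04 in the CA1 cell body layer. The cell body arrays stood above the dendritic arrays in both regions, and the dendritic arrays of CA1 spread widely. Its layer difference was -2.94 (SE 0.26, limma adjusted p = 1e-05) in CA2 and -1.30 (SE 0.26, limma adjusted p = 0.0025) in CA1, with both dendritic means below the control percentile. Its cell body region difference of 0.95 (SE 0.26, limma adjusted p = 0.0276) was lost without CA1 cell body replicate 1 or 3 or any single CA2 cell body array (adjusted p up to 0.107). Its interaction of -1.65 (SE 0.37, limma adjusted p = 0.021) was lost without CA1 dendritic replicate 1, CA1 cell body replicate 1 or 3 or CA2 cell body replicate 2 or 3 (adjusted p up to 0.0607) and became -1.09 (adjusted p = 0.101) without replicate 3.

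Of the 10 silent subunits, 4 fell in the CA2 dendritic layer (Kcnv1, Kcns2, Kcng3 and Kcng1), 2 in that of CA1 (Kcnv1 and Kcns2), and none rose in either. The falls were 40% of the 10 in CA2 and 20% in CA1, where 17.8% and 18.5% of all genes fell. Between cell body layers 3 rose in CA2 (Kcnv1, Kcng3 and Kcnv2) and 1 fell (Kcns2), which is 40% where 21.1% of all genes passed. Between dendritic layers none passed, where 30.2% of all genes did. The layer difference of Kcns2 was -0.63 (SE 0.10, limma adjusted p = 0.000586) in CA2, and -0.38 (limma adjusted p = 0.177) without the arrays with oocyte transcripts. Kcng3 gave -0.47 (SE 0.066, limma adjusted p = 0.000232) in the layers of CA2 and 0.47 (SE 0.066, limma adjusted p = 0.000648) between the cell body layers. The calls of Kcng1 in CA2 and of Kcnv2 between cell body layers were each lost without single arrays (CA2 cell body replicate 2 or CA2 dendritic replicate 3 for Kcng1, any CA1 cell body array or CA2 cell body replicate 1 for Kcnv2). The other 5 subunits (Kcnf1, Kcng2, Kcng4, Kcns1 and Kcns3) passed in no comparison.

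The Kv3 genes, known from fast-spiking neurons, included a member that changed in opposite directions. Kcnc4 read 7.98, 7.84 and 8.13 in the CA2 dendritic layer, against 7.11, 7.42 and 7.26 in the CA2 cell body layer. Kcnc4 in CA1 read 7.79, 8.10 and 8.17 in the CA1 dendritic layer, against 7.18, 7.01 and 7.18 in the CA1 cell body layer. The dendritic arrays lay above the cell body arrays in both regions, by 0.72 (SE 0.11, limma adjusted p = 0.000404) in CA2 and 0.90 (SE 0.11, limma adjusted p = 8.01e-05) in CA1. Kcnc2 read 8.77, 8.66 and 8.71 in the CA2 dendritic layer, against 8.41, 8.40 and 8.45 in the CA2 cell body layer. Kcnc2 in CA1 read 8.22, 8.21 and 8.38 in the CA1 dendritic layer, against 8.73, 8.79 and 8.78 in the CA1 cell body layer. The CA2 dendritic arrays were above those of the cell body layer, and in CA1 the order was turned round. Its layer difference was 0.29 (SE 0.065, limma adjusted p = 0.00495) in CA2 and -0.50 (SE 0.065, limma adjusted p = 0.000137) in CA1, with an interaction of 0.79 (SE 0.092, limma adjusted p = 0.000743). Its region differences also had opposite signs, with -0.35 (SE 0.065, limma adjusted p = 0.00381) between cell body layers and 0.44 (SE 0.065, limma adjusted p = 0.00112) between dendritic layers. Without the arrays with oocyte transcripts the CA2 value was 0.41 (limma adjusted p = 0.0715). Kcnc1 was higher in CA2 by 0.58 (SE 0.075, limma adjusted p = 0.000383) between cell body layers and had layer differences of -0.19 in CA2 and 0.13 in CA1 that did not pass. Of 12 interneuron markers, 9 rose and 0 fell in the CA2 dendritic layer, and 10 rose and 1 fell in that of CA1. The marker that fell in CA1 was Pvalb (-0.57, limma adjusted p = 0.00324), which had -0.14 in CA2 and did not pass there. The mean of the list was 8.94 to 9.07 in the CA2 dendritic and 7.55 to 7.64 in the CA2 cell body layer. In CA1 it was 8.61 to 8.99 in the dendritic and 7.50 to 7.62 in the cell body layer. The part of these markers in the Kv3 values was not tested.

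Among the 8 BK and Slack genes, 2 rose and 4 fell in the CA2 dendritic layer (75%, where 34% of all genes passed). In that of CA1, 4 rose and 2 fell (75%, where 46.9% of all genes passed). Kcnma1, the pore-forming BK subunit, fell in both dendritic layers, with differences of -1.14 (SE 0.067, limma adjusted p = 5.05e-07) in CA2 and -0.44 (SE 0.067, limma adjusted p = 0.000349) in CA1. The CA2 difference minus the CA1 difference was -0.70 (SE 0.094, limma adjusted p = 0.00169). Kcnma1 was higher in CA2 between cell body layers by 0.23, a call lost without 6 single arrays in turn, and lower in CA2 between dendritic layers (-0.47, SE 0.067, limma adjusted p = 0.000894). Kcnmb2, an accessory subunit that inactivates BK channels, read 7.43, 7.28 and 7.86 in the CA2 dendritic layer, against 6.53, 6.56 and 6.45 in the CA2 cell body layer. Kcnmb2 in CA1 read 6.84, 6.79 and 7.08 in the CA1 dendritic layer, against 6.25, 6.14 and 5.92 in the CA1 cell body layer. The dendritic arrays were higher in both regions, by 1.01 (SE 0.14, limma adjusted p = 0.000235) in CA2 and 0.80 (SE 0.14, limma adjusted p = 0.00103) in CA1, and the CA2 dendritic arrays were the highest of all. The dendritic region difference of 0.62 (SE 0.14, limma adjusted p = 0.0102) was 0.48 (limma adjusted p = 0.164) without the arrays with oocyte transcripts.

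Kcnmb4, the main BK accessory subunit of neurons, was higher in CA2 by 0.84 (SE 0.073, limma adjusted p = 2.93e-05) between cell body layers. Its layer difference was -0.24 (SE 0.073, limma adjusted p = 0.027) in CA2, lost without CA2 cell body replicate 2 or 3 or CA2 dendritic replicate 1 or 2, and 0.31 (SE 0.073, limma adjusted p = 0.00595) in CA1. Kcnmb1, the smooth muscle subunit, rose in the dendritic layer of CA2 (0.30) and of CA1 (0.53), with the CA2 call lost without CA2 cell body replicate 1 or 2 or CA2 dendritic replicate 1. All 10 mural markers rose in both dendritic layers, with a list mean of 8.42 to 8.53 in the CA2 dendritic, 6.84 to 7.00 in the CA2 cell body, 7.95 to 8.35 in the CA1 dendritic and 6.76 to 6.79 in the CA1 cell body layer, and their part in this value was not tested. The sodium-activated Slick gene Kcnt2 fell in both dendritic layers (-0.56 in CA2 and -0.36 in CA1), where the CA1 call was lost without dendritic or cell body replicate 1 or 2 and the CA2 value was -0.45 (limma adjusted p = 0.203) without the arrays with oocyte transcripts. The Slack gene Kcnt1 fell in CA2 (-0.58, SE 0.079, limma adjusted p = 0.000211), with -0.20 in CA1 (limma adjusted p = 0.0649). Kcnmb3 rose in CA1 alone by 0.25, a call lost without 9 of the 12 arrays in turn, and the sperm channel gene Kcnu1 passed in no comparison.

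Of the SK and IK genes, Kcnn3 rose in both dendritic layers, by 0.95 (SE 0.087, limma adjusted p = 1.22e-05) in CA2 and 0.79 (SE 0.087, limma adjusted p = 4.29e-05) in CA1. Kcnn2, the SK subunit of the afterhyperpolarisation in CA1 pyramidal cells, fell in the CA1 dendritic layer (-0.34, SE 0.075, limma adjusted p = 0.00421) and had -0.077 in CA2 (limma adjusted p = 0.515). Between cell body layers Kcnn2 was lower in CA2 (-0.33, SE 0.075, limma adjusted p = 0.0113), a call lost without CA1 cell body replicate 2 or CA2 cell body replicate 3. Kcnn1 and the IK gene Kcnn4 each rose by 0.22 in the CA1 dendritic layer, lost without 10 and 4 single arrays in turn, with -0.093 and -0.047 in CA2 that did not pass. The call of Kcnn1 between dendritic layers (-0.24) was also lost without 10 single arrays in turn.

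Of the 5 KCNE accessory subunits, 1 rose and 1 fell in the CA2 dendritic layer, and 2 rose in that of CA1. That is 40% in each region, where 34% of all genes passed in CA2 and 46.9% in CA1. Kcne1l, the file's name for a subunit that inhibits several Kv channels, rose by 0.27 (SE 0.079, limma adjusted p = 0.0218) in CA2 and 0.46 (SE 0.079, limma adjusted p = 0.000799) in CA1, and the CA2 call was lost without CA2 cell body replicate 2 or 3 or CA2 dendritic replicate 1 or 3. Kcne1 fell in CA2 (-0.27, SE 0.085, limma adjusted p = 0.0326), lost without CA2 cell body replicate 2 or CA2 dendritic replicate 1 or 2, and Kcne2 rose in CA1 (0.24, SE 0.079, limma adjusted p = 0.029), lost without CA1 dendritic replicate 2 or CA1 cell body replicate 1 or 2. Between cell body layers Kcne1l was higher in CA2 (0.28), and between dendritic layers Kcne1 was lower in CA2 (-0.29), calls lost without 5 and 4 single arrays in turn. Kcne3 and Kcne4 passed in no comparison.

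Among the inward rectifiers, 2 subunits known from astrocytes rose and 3 GIRK subunits fell in the dendritic layers of both regions. Over all genes, 12.4% rose and 12.2% fell in both. Of the 15 inward rectifiers, 3 rose and 5 fell in the CA2 dendritic layer (53.3%, where 34% of all genes passed). In that of CA1, 4 rose and 5 fell (60%, where 46.9% of all genes passed). Kcnj10, the rectifier by which astrocytes take up potassium, read 10.51, 10.52 and 10.49 in the CA2 dendritic layer, against 8.44, 8.35 and 8.51 in the CA2 cell body layer. Kcnj10 in CA1 read 10.13, 9.97 and 9.87 in the CA1 dendritic layer, against 7.81, 7.61 and 7.64 in the CA1 cell body layer. The layers were far apart in both regions, with the CA2 arrays of each layer above the CA1 arrays of the same layer. The layer difference was 2.07 (SE 0.076, limma adjusted p = 3.05e-08) in CA2 and 2.30 (SE 0.076, limma adjusted p = 1.94e-08) in CA1, with a region difference of 0.75 (SE 0.076, limma adjusted p = 8.81e-05) between cell body layers. Kcnj16, which forms a pH-sensitive channel with Kcnj10, read 7.48, 7.72 and 7.49 in the CA2 dendritic layer, against 6.44, 6.61 and 6.14 in the CA2 cell body layer. Kcnj16 in CA1 read 6.80, 7.13 and 7.36 in the CA1 dendritic layer, against 6.14, 6.33 and 6.21 in the CA1 cell body layer. The dendritic arrays were the higher ones in both regions, by 1.17 (SE 0.13, limma adjusted p = 5.15e-05) in CA2 and 0.87 (SE 0.13, limma adjusted p = 0.000365) in CA1. The dendritic region call of Kcnj16 (0.47) was lost without CA1 dendritic replicate 1 or 2 or CA2 dendritic replicate 1 or 2, and that of Kcnj10 (0.52) became 0.39 (limma adjusted p = 0.103) without the arrays with oocyte transcripts.

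All 12 astrocyte markers rose in both dendritic layers, with a median of 1.75 in CA2 and 1.98 in CA1. The mean of that list was 9.69 to 9.80 in the CA2 dendritic, 7.95 to 8.00 in the CA2 cell body, 9.68 to 9.73 in the CA1 dendritic and 7.73 to 7.75 in the CA1 cell body layer. Between cell body layers 4 of the 12 were higher and 1 lower in CA2, and between dendritic layers 2 were higher and 2 lower. Their part in the values of Kcnj10 and Kcnj16 was not tested. Kcnj8, the KATP pore of pericytes and smooth muscle, rose by 0.29 in CA2 and 0.46 in CA1, and in CA2 the call was lost without 7 single arrays in turn and the value was 0.098 (limma adjusted p = 0.708) without the arrays with oocyte transcripts.

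In both dendritic layers 3 of the 4 GIRK subunits fell, by which GABA and adenosine receptors hyperpolarise pyramidal cells. Over all genes, 17.8% fell in the CA2 dendritic layer, 18.5% in that of CA1 and 12.2% in both. Kcnj3 read 8.66, 8.68 and 8.55 in the CA2 dendritic layer, against 10.65, 10.68 and 10.67 in the CA2 cell body layer. Kcnj3 in CA1 read 9.16, 8.84 and 9.26 in the CA1 dendritic layer, against 10.77, 10.72 and 10.70 in the CA1 cell body layer. The cell body arrays stood far above the dendritic arrays in both regions, and the cell body arrays of CA2 lay just below those of CA1. The layer difference was -2.04 (SE 0.096, limma adjusted p = 1.25e-07) in CA2 and -1.64 (SE 0.096, limma adjusted p = 6.12e-07) in CA1. Kcnj6 also fell, with differences of -1.59 (SE 0.10, limma adjusted p = 8.39e-07) in CA2 and -1.05 (SE 0.10, limma adjusted p = 1.5e-05) in CA1. Kcnj9 fell as well, with differences of -0.52 (SE 0.10, limma adjusted p = 0.00228) in CA2 and -0.86 (SE 0.10, limma adjusted p = 6.99e-05) in CA1. Kcnj9 was also lower in the CA2 than in the CA1 cell body layer (-0.74, SE 0.10, limma adjusted p = 0.000625). Kcnj5, the GIRK subunit of the heart, passed in no comparison.

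**Figure D4:**
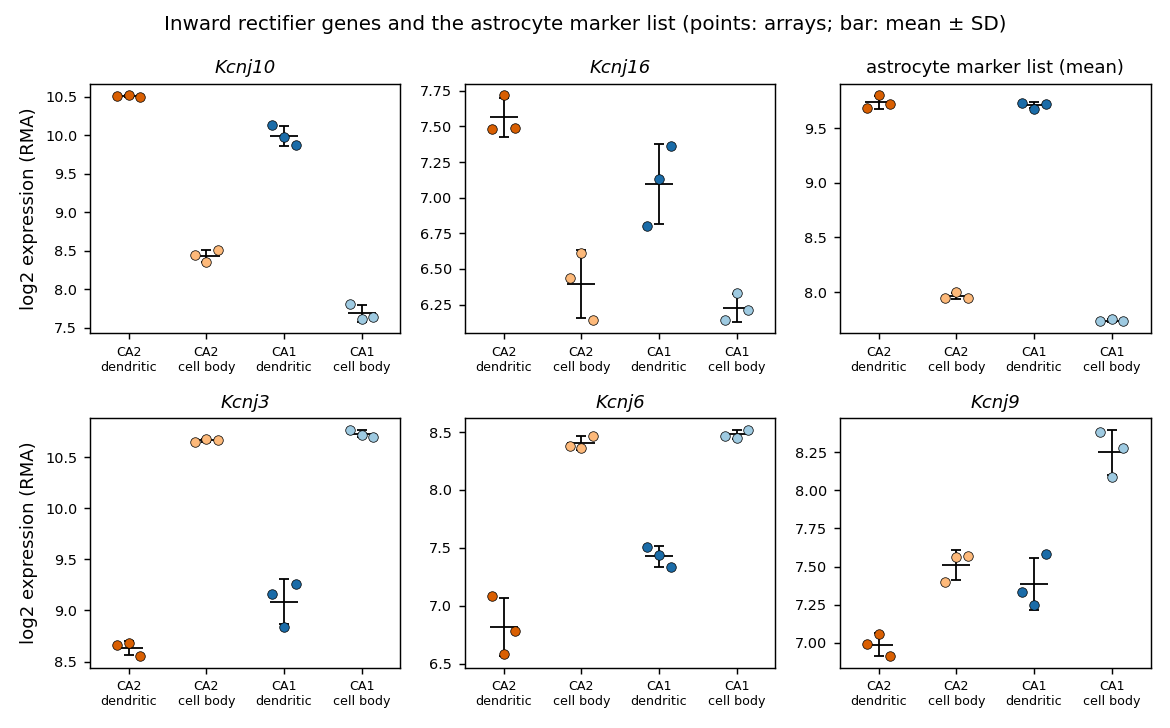
Log2 level of the astrocyte rectifiers Kcnj10 and Kcnj16, the mean of the 12 astrocyte markers, and the GIRK subunits Kcnj3, Kcnj6 and Kcnj9 on each array, with points for arrays and a black mark with bars for the mean and SD of each group, in the order CA2 dendritic, CA2 cell body, CA1 dendritic and CA1 cell body layer. Kcnj10, Kcnj16 and the astrocyte mean are higher in the dendritic layers, and the GIRK subunits in the cell body layers.

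Of the other inward rectifiers, the strong rectifier Kcnj4 fell in both dendritic layers, with differences of -1.55 (SE 0.20, limma adjusted p = 0.000126) in CA2 and -1.003 (SE 0.20, limma adjusted p = 0.00214) in CA1. Kcnj11, the KATP pore of neurons, fell in CA2 (-0.52, SE 0.11, limma adjusted p = 0.00396) and had -0.16 in CA1 (limma adjusted p = 0.242). Kcnj2 fell in CA1 (-0.72, SE 0.20, limma adjusted p = 0.0148), lost without CA1 dendritic replicate 2 or 3 or CA1 cell body replicate 1, and had -0.50 in CA2 (limma adjusted p = 0.0908). Kcnj14 rose in CA1 by 0.26, a call lost without CA1 cell body replicate 1. Kcnj1, Kcnj12, Kcnj13 and Kcnj15 passed in no comparison. Between dendritic layers the falls in CA2 of Kcnj6 (-0.61), Kcnj3 (-0.46), Kcnj11 (-0.42) and Kcnj9 (-0.40) were all lost without the arrays with oocyte transcripts, at -0.38, -0.48, -0.52 and -0.43 in that order.

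Of 14 K2P leak channels, 0 rose and 4 fell in the CA2 dendritic layer (28.6%, where 34% of all genes passed). In that of CA1, 1 rose and 1 fell (14.3%, where 46.9% of all genes passed). Kcnk9, the TASK channel of many central neurons, read 7.60, 7.16 and 6.99 in the CA2 dendritic layer, against 8.42, 8.34 and 8.49 in the CA2 cell body layer. Kcnk9 in CA1 read 7.86, 8.17 and 8.22 in the CA1 dendritic layer, against 9.07, 9.35 and 9.04 in the CA1 cell body layer. The layers did not overlap in either region, and the CA2 dendritic arrays were the lowest, with replicate 1 of that group above the other two. The layer difference was -1.17 (SE 0.16, limma adjusted p = 0.000193) in CA2 and -1.07 (SE 0.16, limma adjusted p = 0.000313) in CA1, and the CA2 value was -0.58 (limma adjusted p = 0.0819) without the arrays with oocyte transcripts. Its region difference was -0.74 (SE 0.16, limma adjusted p = 0.00806) between cell body layers and -0.83 (SE 0.16, limma adjusted p = 0.00424) between dendritic layers, and the dendritic value was -0.33 (limma adjusted p = 0.258) without those arrays.

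Kcnk2, the mechanosensitive TREK channel, was higher in CA2 by 0.76 (SE 0.10, limma adjusted p = 0.000452) between cell body layers and fell in the CA2 dendritic layer (-0.52, SE 0.10, limma adjusted p = 0.002). Kcnk12, a silent THIK subunit, fell in the CA2 dendritic layer, by a difference of -0.50 (SE 0.11, limma adjusted p = 0.00459), and of -0.85 (limma adjusted p = 0.0147) without the arrays with oocyte transcripts. Between dendritic layers Kcnk12 was lower in CA2 (-0.73, SE 0.11, limma adjusted p = 0.00133). Kcnk6 rose in the CA1 dendritic layer by 0.78 (SE 0.073, limma adjusted p = 1.41e-05) and had 0.13 in CA2 (limma adjusted p = 0.236). Between dendritic layers Kcnk6 was lower in CA2 (-0.48, SE 0.073, limma adjusted p = 0.00135), and -0.43 (limma adjusted p = 0.0946) without the arrays with oocyte transcripts. Kcnk4 fell in CA2 by 0.30, lost without CA2 cell body replicate 2 or CA2 dendritic replicate 1. Between dendritic layers Kcnk3 (-0.42), Kcnk4 (-0.26) and Kcnk10 (-0.23) also fell in CA2, lost without CA2 dendritic replicate 2 for Kcnk3, without 4 single arrays in turn for Kcnk4 and without 10 for Kcnk10. Kcnk13, the THIK channel of microglia, rose in CA2 by 0.31 between cell body layers, lost without 10 single arrays in turn. Of 11 microglia markers, 9 were lower in the CA2 dendritic layer than in that of CA1 and 1 was lower in the CA2 cell body layer, with a list mean of 8.84 to 8.87 in the CA2 dendritic, 7.11 to 7.16 in the CA2 cell body, 9.19 to 9.31 in the CA1 dendritic and 7.00 to 7.06 in the CA1 cell body layer. Their part in the K2P values was not tested. The other 6 K2P genes (Kcnk1, Kcnk5, Kcnk7, Kcnk15, Kcnk16 and Kcnk18) passed in no comparison.

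Kcnrg, a protein that interferes with the assembly of Kv channels, passed in no comparison, with a layer difference of 0.37 in CA2 and -0.26 in CA1.

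A list of 28 genes that act with these channels (G protein-coupled receptors that open or shut them, G protein partners, anchors, sulfonylurea receptors and accessory proteins) had 23 measured members. Of these, 2 rose and 15 fell in the CA2 dendritic layer, where 16.2% of all genes rose and 17.8% fell. In that of CA1, 3 rose and 16 fell, where 28.3% of all genes rose and 18.5% fell. The medians of the list were -0.527 in CA2 and -0.537 in CA1, against -0.027 and 0.12 over all genes. Chrm1, the muscarinic receptor that shuts the M channel, fell in both (-1.67 in CA2 and -1.15 in CA1). Gabbr2, a subunit of the GABA-B receptor that opens GIRK channels, fell in both (-1.41 in CA2 and -0.58 in CA1), and its partner Gabbr1 had 0.02 in CA2 and -0.16 in CA1, which did not pass. The GIRK regulators Rgs7 and Gnb5 fell in both, with -0.98 and -0.77 in CA2 and -1.29 and -1.18 in CA1. Abcc9, the sulfonylurea receptor paired with Kcnj8, rose by 1.69 in CA2 and 1.41 in CA1. Between cell body layers 4 of the 23 rose and 4 fell in CA2, where 10.6% of all genes rose and 10.5% fell. Between dendritic layers 5 of the 23 rose and 6 fell, where 11.6% of all genes rose and 18.6% fell.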

How the data were processed

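The deposited values are log2 expression values that the authors made with RMA (robust multi-array average), per the submitters' processing notes (software and version: not given in the sources used here). Of 72688 features, 30604 had 1 gene symbol in the platform annotation, 2146 had several and 39938 had none here. Symbols were updated through a RefSeq table (22818 matched, 827 changed, none among the 72 genes), and the feature with the highest mean was kept for each gene, which left 30142 genes. limma 3.58.1 in R 4.3.3 fitted the 12 arrays together (lmFit and eBayes), with a mean for each of the 4 groups and a fixed block for the array number. Tests covered both directions, Benjamini-Hochberg adjustment ran over all genes, and the threshold was 0.05. The procedure was tested on simulated data. An array gives no read depth.

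The genes, the partner and marker lists and the tests were chosen with earlier results of these data known. Genes with a called difference of at least 1 on the log2 scale are named with values, or the 4 largest in each direction where fewer reached 1 in a region comparison or the interaction. Per-array values are given for genes among the 3 largest rises or falls of a comparison, and genes that did not pass are named with values in groups of fewer than 5. The alternatives were other normalizations, filters, features, weights, thresholds and left-out arrays. No filter on low values was used, so all 72 genes were tested.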

Additional observations from a re-analysis of the deposited data

Results flagged for a closer look

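The layer difference (dendritic minus cell body layer, log2) differed between CA2 and CA1 in 16 genes by the limma test of the difference itself, as CA2 minus CA1. The value was positive for Kcnh7 (1.93, 95% interval 1.33 to 2.52), Kcnb2 (0.96, 0.59 to 1.33), Kcnc2 (0.79, 0.58 to 0.996) and Kcns2 (0.53, 0.21 to 0.85). It was negative by more than 1 for Kcnv1 (-1.65, -2.48 to -0.82), Kcnh1 (-1.44, -1.71 to -1.17), Kcnh8 (-1.39, -1.61 to -1.18) and Kcnq5 (-1.16, -1.39 to -0.93). Smaller negative values were those of Kcnk2 (-0.77), Kcnma1 (-0.70), Kcnk6 (-0.65), Kcng3 (-0.64), Kcnmb4 (-0.55), Kcnj6 (-0.54), Kcne1 (-0.44) and Kcnh4 (-0.35). In Kcnc2 the layers differed in opposite directions in the regions, and likewise in Kcnh8 and Kcnmb4. The CA2 layer calls of Kcnc2 and Kcnmb4 were lost without the arrays with oocyte transcripts, where a single CA2 dendritic array was left. Their values were then 0.41 and -0.35, against 0.29 and -0.24 with all arrays. Every group mean of Kcnh8 lay below the 95th percentile of the control features. The dendritic means of Kcnb2, Kcns2 and Kcnv1 lay below it in both regions. For these 3 genes unequal layer differences and unequal cell body levels cannot be told apart. Every group mean of Kcng3, Kcne1 and Kcnh4 also lay below that percentile, so their values rest on readings at the level of the control features.

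Without the 3 CA2 arrays with oocyte transcripts, 8 of the 16 still passed: Kcnma1, Kcnk2, Kcnh7, Kcnh8, Kcnh1, Kcnb2, Kcnc2 and Kcnq5. The other 8 values (limma adjusted p of 0.0505 to 0.277) were then Kcns2 (0.78), Kcnv1 (-1.59), Kcng3 (-0.73), Kcnmb4 (-0.66), Kcnk6 (-0.56), Kcne1 (-0.50), Kcnj6 (-0.34) and Kcnh4 (-0.32). Kcne1, Kcnj6, Kcnh4 and Kcns2 lost the call without 9 or 10 of the 12 arrays in turn, and Kcnv1 without 5.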

How the results depend on the processing

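Of 130 calls over the 5 comparisons, 65 passed in every setting that gave a value and 65 were lost in at least 1 of the settings, and none changed direction. The counts that moved by over 1.5 times were these. In the layers of CA1, 12 genes rose at an adjusted p under 0.01, where 32% of all genes passed. Between cell body layers, 21 genes rose in CA2 after quantile normalization, 21 after median centring and 8 at the stricter threshold. Of all genes, 27%, 28% and 12.2% passed there, in that order. Between dendritic layers, 3 rose and 8 fell with the groups compared alone, 4 rose when every feature was tested, 2 rose and 8 fell at the stricter threshold, and 8 fell after median centring. The shares that passed there were 10.3% of all genes, 15.3% of all features, and 13% and 22.6% of all genes, in that order. Quantile normalization also left 14.3% of the interaction calls positive, against 25% as deposited. Without the arrays with oocyte transcripts, 1 rose and 5 fell between dendritic layers, and 5 interaction values were negative. Groups compared alone could not give the interaction, which needs all 4 groups. The cause of these shifts was not tested.

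When a replicate number or a single array was left out in turn, the genes that rose and fell numbered 6 to 10 and 19 to 25 in the layers of CA2, 9 to 21 and 14 to 18 in those of CA1, 8 to 13 and 8 to 11 between cell body layers, 3 to 9 and 8 to 17 between dendritic layers, and 2 to 6 and 5 to 14 in the interaction. The shares of all genes that passed were 26.5% to 35.2%, 32.2% to 48.8%, 11.4% to 22.4%, 12.2% to 32.2% and 2.31% to 16.2%, in that order. Same-numbered arrays did not deviate together: their correlations ran over -0.346 to 0.132 in 18 pairs, 1 of them above 0.1, against -0.134 to 0.251 in 36 pairs of other numbers, 6 of them above 0.1. With no replicate block the genes that rose and fell were 9 and 23 in CA2, 20 and 17 in CA1, 15 and 11 between cell body layers, 7 and 24 between dendritic layers, and 4 and 16 in the interaction. Of all genes, 35.2%, 49%, 22.8%, 33.6% and 14.6% then passed, in that order. A filter on low values kept 65 of the 72 genes. In 33 of the 72 genes every group mean lay below the 95th percentile of the control features, which limits what their differences can show.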
